A study of Homo sapiens and Mus musculus with 12 samples.

Results

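The genes described here are 10 growth-factor-induced immediate-early genes, most of which encode transcription factors: the early growth response genes *EGR1*, *EGR2* and *EGR3*, the immediate early response genes *IER2* and *IER3*, the Krüppel-like factor genes *KLF2*, *KLF4*, *KLF6* and *KLF10*, and *MYC*, together with the mouse genes of the same symbols. They were chosen by symbol with earlier results of these data known, so the share of them that was lower is not an independent result. All 10 were matched to a gene identifier among the 63677 human and the 47729 mouse identifiers in the count files. Transcripts were sequenced in MDA-MB-231, a human triple-negative breast cancer (TNBC) cell line, and in 4T1, a mouse mammary carcinoma cell line, each kept in medium with serum. Cells of each line received 1 μM ponatinib, an inhibitor of several tyrosine kinases, or the solvent dimethyl sulfoxide (DMSO), and RNA was taken at 24 h. There were 3 libraries in each of the 4 groups and 12 in all. The labels do not say whether the libraries of a group came from separate cultures, so the p-values measure the spread between these libraries, which may be technical.

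The MDA-MB-231 libraries held 15012884 to 17301760 counts each and the 4T1 libraries 17800675 to 18951493. Markers of both lines were checked in the counts. MDA-MB-231 had *KRT8* (41223 counts over the DMSO libraries) and *VIM* (59699 counts), no *CDH1* counts with DMSO and 3 counts of *ESR1*, the estrogen receptor gene. 4T1 had *Krt8* (128718 counts), *Vim* (175484 counts) and *Cdh1* (44770 counts) with DMSO. Of the hormone receptor genes, *PGR*, for the progesterone receptor, had 30 counts with DMSO in MDA-MB-231 and *Pgr* none in 4T1, where *Esr1* had 184 counts with DMSO and 362 with ponatinib and was called higher (log2 fold change 0.89). The leukocyte gene *PTPRC* had 0 counts in MDA-MB-231 and 8 counts in the 6 libraries of 4T1 (6 with DMSO and 2 with ponatinib). Of the other immune genes, *Cd14* was present in 4T1 and fell (12782 counts to 8235), and *CSF1R* rose in MDA-MB-231 (34 counts to 89). Other markers that moved with ponatinib included *KRT8* (log2 fold change 0.88) and *VIM* (-0.66) in MDA-MB-231, *COL1A1* in MDA-MB-231 (1.43) and 4T1 (1.26), and *Kdr* in 4T1 (-2.06). The 4T1 values rest on few counts, 184 with DMSO and 471 with ponatinib for *Col1a1* and 185 and 47 for *Kdr*. The other fibroblast gene tested in 4T1, *Pdgfra*, fell (155 counts to 89, log2 fold change -0.88). The epithelial genes *KRT7* (0.88) and *EPCAM* (0.41) also rose in MDA-MB-231. In 4T1, *Krt7* (-0.87) and *Krt18* (-0.54) fell and *Krt8* (0.24) rose. Among mesenchymal genes, *ZEB1* (-0.50) fell and *FN1* (0.75) rose in MDA-MB-231, and *Fn1* (-1.82) and *Zeb1* (-0.36) fell in 4T1. Levels are given below as CPM (counts of a gene relative to all counts of its library) with totals scaled by TMM, and a gene was called at an adjusted p-value under 0.05 in the quasi-likelihood test of edgeR, adjusted by Benjamini-Hochberg over all genes tested in its line. In 4T1, *Cd14* had a mean of 237 CPM in the DMSO and 144 CPM in the ponatinib libraries, the T cell gene *Cd3e* had 0 counts there, and the part of these markers in the results was not tested.

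Immediate-early genes are transcribed within minutes of growth factor, stress or cytokine signaling, without new protein synthesis. At several of them, the kinases ERK and p38 act through ternary complex factors of the ETS family that sit with serum response factor (SRF) on a serum response element, whose core is the CArG box. EGR proteins are zinc finger activators restrained by the co-repressors NAB1 and NAB2, KLF proteins bind GC-rich promoter sequences, and MYC pairs with MAX to activate genes of growth and ribosome production. Most of these transcripts are short-lived, and in growing cultures, away from an acute stimulus, they are held at a lower, steady level.

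Most of these genes were lower with ponatinib in each line. None was higher past the threshold with all libraries and no replicate block. With a replicate block, or without ponatinib replicate 1, *KLF4* was higher and *KLF2* lower in MDA-MB-231, for 8 called members in place of 6. In MDA-MB-231, 8 of the 10 genes had enough counts to be tested. Of these, 6 were lower with ponatinib (*EGR1*, *IER2*, *IER3*, *KLF6*, *KLF10* and *MYC*), against 26.8% of all 14610 genes tested that were lower and 27.2% that were higher. In 4T1, all 10 were tested and 8 were lower (*Egr1*, *Egr2*, *Egr3*, *Ier3*, *Klf4*, *Klf6*, *Klf10* and *Myc*), against 29.4% lower and 29.5% higher of 13286 genes. The 6 and the 8 called genes were also those whose 3 ponatinib libraries all lay below the 3 DMSO libraries, which was so for 29.8% of all genes tested in MDA-MB-231 and for 30.8% in 4T1. The 5 genes lower in both lines were *EGR1*, *IER3*, *KLF6*, *KLF10* and *MYC*. The share of all genes lower in both lines was not counted, so this number has no background beside it. The median log2 fold change of the tested members was -0.58 for MDA-MB-231 and -0.93 for 4T1, beside medians of 0.015 and -0.00014 over all tested genes. The counts are of whole cultures, in which fewer cells with a transcript and less of it per cell cannot be told apart.

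**Figure D1:**
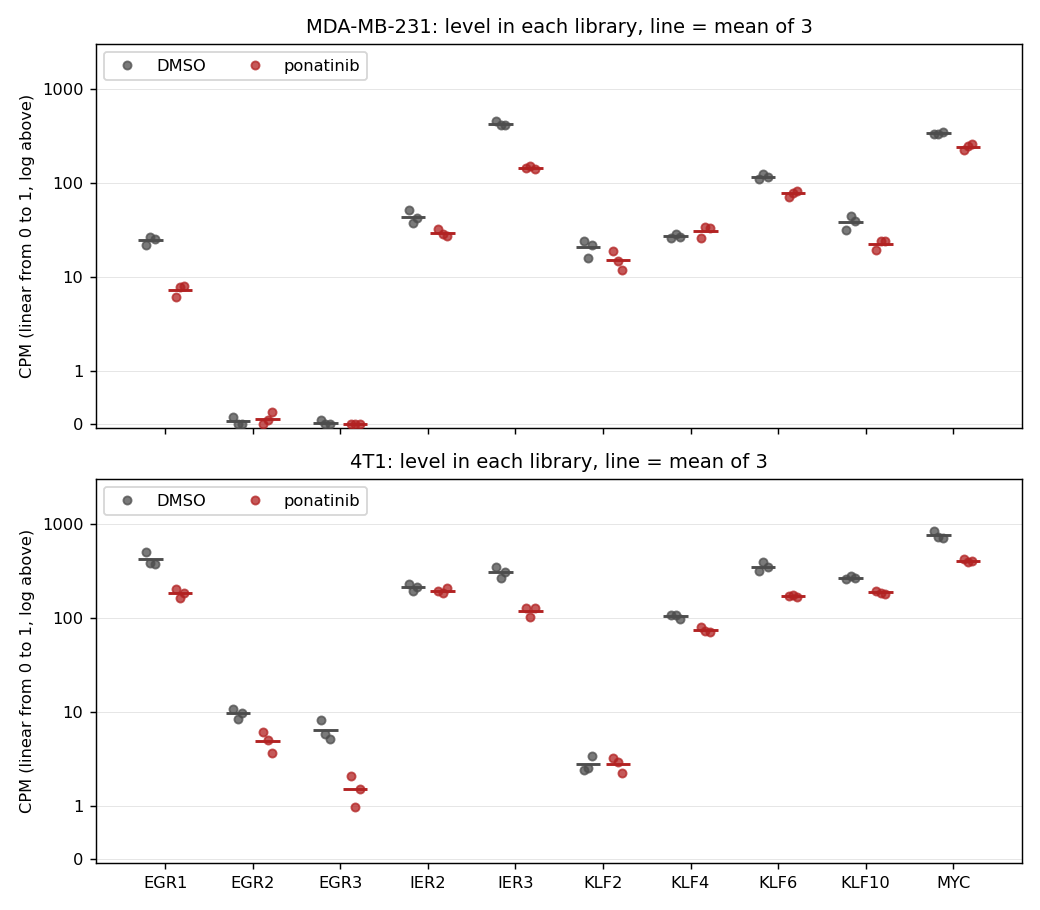
CPM of each gene in each library (linear from 0 to 1, log above) in MDA-MB-231 and 4T1, with gray points for DMSO, red points for ponatinib and a bar at the mean of 3. *EGR2* and *EGR3* lie near 0 in MDA-MB-231, and the ponatinib libraries lie fully below the DMSO libraries for 6 human genes and 8 mouse genes.

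*EGR1*, which encodes the founding EGR activator and is a direct SRF target, had the largest fall of the tested members in MDA-MB-231. Its level was 21.8, 27.0 and 25.4 CPM in the DMSO libraries and 6.18, 7.96 and 8.05 CPM in the ponatinib libraries. The groups were far apart, and the ponatinib mean was 30.0% of the DMSO mean. The log2 fold change was -1.74 (SE 0.14, adjusted p = 1.25e-06 in edgeR), and only 1.05% of the tested genes had a lower value. In 4T1, *Egr1* was read at 506, 380 and 377 CPM with DMSO and at 204, 162 and 183 CPM with ponatinib. DMSO library 1 stood above its 2 companions, and the lowest DMSO library still exceeded every ponatinib library. The fall was 1.20 on the log2 scale (log2 fold change -1.20, SE 0.11, edgeR adjusted p = 5.97e-07), leaving 43.4% of the DMSO mean.

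The promoter of human *EGR1* is shown because it carries the serum response elements by which the gene is known. The line gives the 160 bases before the RefSeq transcription start at chr5:138465319-138465478 (GRCh38.p14, plus strand), 5′ to 3′, with matches to the CArG box in capitals. One match lies 105 to 96 bases and another 83 to 74 bases before the start. Among 35116 human promoters searched over 250 bases on both strands, 1.16% held a CArG box.
EGR1: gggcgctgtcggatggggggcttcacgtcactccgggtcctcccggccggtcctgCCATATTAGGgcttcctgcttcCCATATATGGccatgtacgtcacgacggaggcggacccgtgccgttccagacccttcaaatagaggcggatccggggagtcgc
The third listed start of *EGR2*, at chr10:62816367-62816526 (minus strand), is shown in the same way for comparison, with its CArG box 71 to 62 bases before the start.
EGR2: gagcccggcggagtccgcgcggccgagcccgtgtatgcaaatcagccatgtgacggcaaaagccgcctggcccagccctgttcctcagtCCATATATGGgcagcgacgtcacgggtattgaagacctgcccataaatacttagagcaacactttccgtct

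*EGR2* and *EGR3*, relatives of *EGR1* with the same kind of DNA-binding domain, were near absent from MDA-MB-231. *EGR2* had 2, 0 and 0 counts with DMSO and 0, 1 and 4 with ponatinib, and *EGR3* had 1 count in a single DMSO library and none elsewhere. A count of 0 allows up to 3 counts, or 0.173 to 0.200 CPM in these libraries, so any response there was not detectable at this depth. Both genes were expressed in 4T1 at low level. *Egr2* was 10.9, 8.50 and 9.73 CPM with DMSO and 6.19, 5.01 and 3.69 CPM with ponatinib (log2 fold change -0.97, SE 0.18, edgeR adjusted p = 0.000342). *Egr3* was 8.22, 5.89 and 5.20 CPM with DMSO and 2.10, 0.982 and 1.52 CPM with ponatinib. That is the largest fall of any member in either line, with a log2 fold change of -2.06 (SE 0.26, edgeR adjusted p = 1.06e-05) and 23.9% of the DMSO mean left. It rests on 346 counts over the DMSO libraries and 88 over the ponatinib libraries, and the ponatinib libraries varied by a coefficient of variation of 36.4%.

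*IER3*, a short stress- and growth-factor-induced gene whose product acts in survival and ERK signaling, fell in both lines. In MDA-MB-231 its DMSO libraries held 459, 416 and 410 CPM and its ponatinib libraries 146, 152 and 141 CPM. The log2 fold change was -1.55 (SE 0.08, edgeR adjusted p = 3.92e-08), a level 2.93-fold lower than with DMSO. In 4T1, *Ier3* was 346, 264 and 311 CPM with DMSO and 128, 102 and 126 CPM with ponatinib. Its log2 fold change was -1.37 (SE 0.11, edgeR adjusted p = 7.40e-08), a level 2.59-fold lower. In each line the replicates of a group lay close together compared with the gap between groups.

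*IER2*, an immediate-early gene that encodes a nuclear regulator of transcription, was called lower in MDA-MB-231. It was 51.9, 37.7 and 42.3 CPM with DMSO and 32.6, 29.1 and 27.5 CPM with ponatinib there, a log2 fold change of -0.56 (SE 0.12, edgeR adjusted p = 0.00215). The highest ponatinib library and the lowest DMSO library were only a few CPM apart. *Ier2* in 4T1 was 228, 195 and 215 CPM with DMSO and 192, 184 and 208 CPM with ponatinib. These groups overlapped, and the log2 fold change was -0.13 (95% interval -0.30 to 0.04, edgeR adjusted p = 0.184). The human *IER2* promoter at chr19:13150251-13150410 (GRCh38.p14, plus strand) is shown because its window held no exact match to the CArG box. It held 1 ETS site, CCGGAAG on either strand, 27 to 21 bases before the start and given in capitals, a word found in 8.52% of the promoters searched.
IER2: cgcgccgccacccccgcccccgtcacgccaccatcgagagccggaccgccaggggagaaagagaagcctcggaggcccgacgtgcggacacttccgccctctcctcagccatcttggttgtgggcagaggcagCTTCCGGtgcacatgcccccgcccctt

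*KLF2* and *KLF4*, known for their roles in vascular and epithelial differentiation, passed the threshold in no line and in 4T1 alone, respectively. *KLF2* in MDA-MB-231 was 24.3, 16.1 and 22.0 CPM with DMSO and 19.2, 14.8 and 11.8 CPM with ponatinib. The groups overlapped through DMSO library 2 and ponatinib library 1. The log2 fold change was -0.45 (SE 0.18) and did not pass the threshold in edgeR without a block (adjusted p = 0.0586), but with the replicate number as a block it did, at -0.45 (adjusted p = 0.00172). It also passed without DMSO replicate 2 (log2 fold change -0.61, adjusted p = 0.0180) and without ponatinib replicate 1 (-0.65, adjusted p = 0.00295), in DESeq2 (adjusted p = 0.0489) and in edgeR with no filter (adjusted p = 0.00146). Without ponatinib replicate 3 it was -0.29 (edgeR adjusted p = 0.197). *Klf2* in 4T1 was scarce, at 2.44, 2.56 and 3.39 CPM with DMSO and 3.27, 2.94 and 2.28 CPM with ponatinib. Its log2 fold change was 0.02 (95% interval -0.48 to 0.52, edgeR adjusted p = 0.949), an interval wide enough to hold a change of the size seen in MDA-MB-231. The mouse gene overlaps *Eps15l1* on the opposite strand (8733 counts in the 6 libraries), and whether counting used strand is not given in the sources used here.

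*KLF4* had estimates of opposite sign in the lines. In MDA-MB-231 it was 25.9, 28.8 and 26.9 CPM with DMSO and 26.2, 34.3 and 33.3 CPM with ponatinib. The groups overlapped through ponatinib library 1 alone, and the log2 fold change was 0.20 (SE 0.11, edgeR adjusted p = 0.155). It passed when replicate numbers entered as a block (0.20, edgeR adjusted p = 0.0309) and without ponatinib replicate 1 (0.31, edgeR adjusted p = 0.0183), and was 0.13 without ponatinib replicate 2 (edgeR adjusted p = 0.448). In 4T1, *Klf4* was 108, 107 and 96.6 CPM with DMSO and 79.8, 73.7 and 70.8 CPM with ponatinib, with no overlap. It fell there to 71.9% of the DMSO mean (log2 fold change -0.48, SE 0.08, edgeR adjusted p = 0.000124).

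The promoters of *KLF2*, *KLF4* and *KLF6* are shown because their 250 bases, unlike those of *EGR1*, held no exact match to the CArG box. The *KLF2* window at chr19:16324666-16324825 (plus strand) has a MEF2 box in capitals, 120 to 111 bases before the start, the element through which ERK5 and MEF2 factors are known to drive this gene. A MEF2 box was found in 0.515% of the promoters searched. The *KLF4* window at chr9:107489770-107489929 and the *KLF6* window at chr10:3785210-3785369 (both minus strand) each have an E-box, CACGTG, in capitals, at 157 to 152 and at 97 to 92 bases before the start. This word, to which MYC and MAX are known to bind, was found in 6.34% of the promoters.
KLF2: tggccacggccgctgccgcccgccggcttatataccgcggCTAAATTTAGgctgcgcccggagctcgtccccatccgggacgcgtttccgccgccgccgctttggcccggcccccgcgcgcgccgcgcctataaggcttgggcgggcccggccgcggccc
KLF4: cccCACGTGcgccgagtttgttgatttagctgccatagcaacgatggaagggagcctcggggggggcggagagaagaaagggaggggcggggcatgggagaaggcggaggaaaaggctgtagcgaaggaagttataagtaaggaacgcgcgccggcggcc
KLF6: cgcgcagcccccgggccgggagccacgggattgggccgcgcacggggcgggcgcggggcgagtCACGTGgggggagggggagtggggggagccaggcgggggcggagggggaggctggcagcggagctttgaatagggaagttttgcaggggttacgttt

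**Figure D2:**
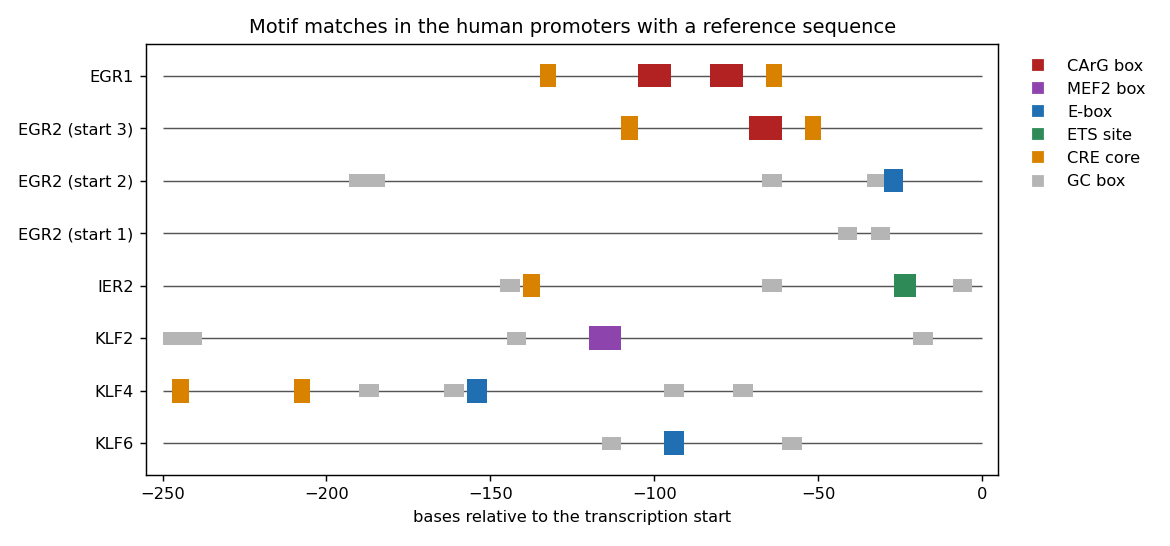
Places of the motif matches in the 250 bases before each human start in the reference table, in bases relative to the transcription start; colors mark the motif. CArG boxes appear before *EGR1* and the third *EGR2* start, and a MEF2 box before *KLF2*.

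*KLF6* and *KLF10*, the members of the family most tied to growth factor and TGF-β signaling, fell in both lines. *KLF6* was 110, 124 and 117 CPM with DMSO and 70.7, 79.4 and 83.1 CPM with ponatinib in MDA-MB-231 (log2 fold change -0.59, SE 0.09, edgeR adjusted p = 0.000136). *Klf6* in 4T1 was 312, 391 and 347 CPM with DMSO and 170, 175 and 165 CPM with ponatinib (log2 fold change -1.04, SE 0.09, edgeR adjusted p = 1.29e-07). The ponatinib mean was thus 66.6% of the DMSO mean in the human line and 48.6% in the mouse line. *KLF10*, a TGF-β-inducible repressor gene, was 31.8, 44.9 and 39.8 CPM with DMSO and 19.6, 24.1 and 24.3 CPM with ponatinib in MDA-MB-231 (log2 fold change -0.78, SE 0.13, edgeR adjusted p = 0.000456). The corresponding 4T1 levels were 258, 280 and 263 CPM against 194, 185 and 182 CPM (log2 fold change -0.52, SE 0.07, edgeR adjusted p = 2.35e-05). For *KLF6* and *KLF10* alike, no ponatinib library reached a DMSO library in either line.

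*MYC* fell less than *EGR1* and *IER3* but from a high level. In MDA-MB-231 it was 336, 331 and 346 CPM with DMSO and 222, 248 and 260 CPM with ponatinib, and in 4T1 *Myc* was 830, 725 and 710 CPM against 423, 392 and 407 CPM. The groups were apart in both lines. The log2 fold change was -0.47 in MDA-MB-231 (SE 0.08, edgeR adjusted p = 0.000334) and -0.89 in 4T1 (SE 0.08, edgeR adjusted p = 3.86e-07), which left 72.0% and 53.9% of the DMSO mean.

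A line-by-treatment interaction term in edgeR, fitted over 12488 genes with a shared symbol that passed the filter, tested whether the response differed between the lines. Of these, 41.9% differed at an adjusted p-value under 0.05. The libraries of both lines were scaled together here, so a difference need not equal that between the values of the separate fits. Of the 8 members tested in both lines, 3 differed, *KLF4*, *KLF6* and *MYC*, each with the lower log2 fold change in 4T1. The difference, 4T1 minus MDA-MB-231, was -0.75 for *KLF4* (SE 0.14, edgeR adjusted p = 0.000218), -0.53 for *KLF6* (SE 0.12, edgeR adjusted p = 0.00205) and -0.49 for *MYC* (SE 0.11, edgeR adjusted p = 0.00177). For *EGR1* and *IER2* the difference lay in the other direction, at 0.46 (95% interval 0.07 to 0.86, edgeR adjusted p = 0.0548) and 0.36 (95% interval 0.06 to 0.67, edgeR adjusted p = 0.0542). With the replicate number as a block both passed, at 0.47 (edgeR adjusted p = 0.00102) and 0.36 (edgeR adjusted p = 0.00214), so that 5 members differed. Both also passed with DESeq2, its size factors, total counts, no filter or a minimum of 10 counts per library. The same 5 differed without 4T1 DMSO replicate 1 (*EGR1* 0.67, *IER2* 0.47) and without 4T1 ponatinib replicate 2 (0.60 and 0.46). Leaving out MDA-MB-231 DMSO replicate 1 added *EGR1* alone (0.55) and lowered the difference of *IER2* to 0.23 (edgeR adjusted p = 0.174). Leaving out MDA-MB-231 DMSO replicate 2, MDA-MB-231 ponatinib replicate 1, 4T1 DMSO replicate 3 or 4T1 ponatinib replicate 1 added *IER2* alone (0.43 to 0.46). The intervals of *IER3* (-0.19 to 0.40), *KLF10* (-0.12 to 0.50) and *KLF2* (-0.25 to 1.04) each included 0.

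**Figure D3:**
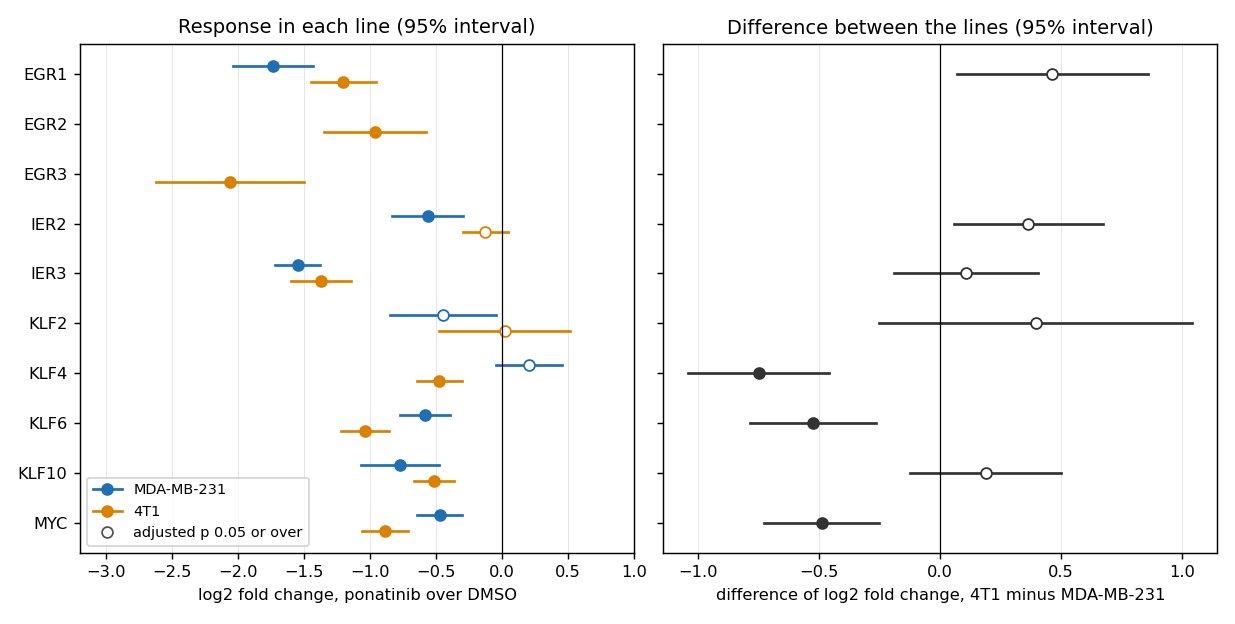
Left, log2 fold change of each tested gene in MDA-MB-231 (blue) and 4T1 (orange) with its 95% interval; right, the difference, 4T1 minus MDA-MB-231, with its 95% interval; filled points passed an adjusted p-value of 0.05. *KLF4*, *KLF6* and *MYC* lie to the left of 0 in the right panel, at -0.75, -0.53 and -0.49.

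Levels between genes were compared per kilobase of exon. With DMSO, *IER3* was the highest member in MDA-MB-231 at a level of 317 CPM per kb, followed by *MYC* at 55.3, *KLF6* at 19.03 and *IER2* at 14.3 CPM per kb. Next came *KLF10* (10.2), *EGR1* (7.89), *KLF4* (7.43) and *KLF2* (7.38 CPM per kb), where each overlapped its neighbor in the range of its libraries. In 4T1 with DMSO, *Myc* (277 CPM per kb) and *Ier3* (270 CPM per kb) overlapped at the top, above *Ier2* (140), then *Egr1* (93.7) and *Klf6* (78.3), which overlapped, then *Klf10* (63.7) and *Klf4* (33.0 CPM per kb). *Egr2* (2.86 CPM per kb) stood above *Egr3* (1.37) and *Klf2* (1.31), which overlapped. By its mean, *EGR1* held the sixth place in MDA-MB-231 and the fourth in 4T1, although its libraries overlapped those of a neighbor in each line. Exon length took in all annotated exons of a gene and differed between the species, as for *MYC* (6109 bases) and *Myc* (2730 bases). With ponatinib, *IER3* remained first in MDA-MB-231 at 108 CPM per kb and *EGR1* dropped to the eighth place at 2.36 CPM per kb. In 4T1, *Myc* led at 149 CPM per kb with ponatinib, ahead of *Ier2* at 128 and *Ier3* at 104 CPM per kb.

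Among the libraries, 4T1 DMSO replicate 1 had the highest level of its group for 7 of the 10 genes and 4T1 ponatinib replicate 1 for 8 of 10. In MDA-MB-231 no library was highest in its group for more than 4 of the 8 tested genes. The 4T1 calls were the same 8 whichever library was left out.

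Most other immediate-early genes tested were lower too. Of the 29 tested in each line, MDA-MB-231 had 17 lower and 6 higher (median log2 fold change -0.53), and 4T1 had 22 lower and 3 higher (median -0.81). There were 13 lower in both lines, 1 higher in both and 6 called in opposite directions. The matching shares over all genes were not counted, so how far the lines agree here cannot be judged. The AP-1 gene *FOSL1* fell from 857 to 130 CPM in MDA-MB-231 (log2 fold change -2.72) and from 684 to 222 CPM in 4T1 (-1.62), and *JUN* by log2 fold changes of -1.53 and -3.16. The small MAF gene *MAFF* fell from 125 to 14.7 CPM in MDA-MB-231 (-3.09) and by less in 4T1 (-1.10). *PTGS2*, which encodes the inducible cyclooxygenase, had the lowest value of the list in the human line (-3.46) and reached -2.90 in 4T1. Named after its values were seen, *FOS*, the classic SRF target beside *EGR1*, rose in MDA-MB-231 (log2 fold change 2.38) and was 0.12 in 4T1, where it did not pass the threshold.

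Genes of the upstream complexes were called in either direction, as were genes at large. Of all human genes tested, 26.8% were lower and 27.2% higher, and of all mouse genes 29.4% were lower and 29.5% higher. Counts of the gene lists, here and in the other paragraphs, were not tested against these shares. Of 6 genes for SRF and its cofactors, 2 were lower and 0 higher in each line, with no gene lower in both. With total counts, 1 was lower in each line and 1 higher in 4T1. A count of 2 in 6 lies near the share of lower genes at large, so it does not set this list apart. The ternary complex factor gene *ELK3* fell in MDA-MB-231 (141 to 51.1 CPM, log2 fold change -1.47) but was 0.12 in 4T1, and *ELK1* fell by 0.24 on the log2 scale in MDA-MB-231 (-0.24). In 4T1 the lower genes were *Mrtfa* (-0.51) and *Elk4* (-0.32). *SRF* itself was not called in either line. Of the EGR co-repressor genes, *Nab2* (-0.99) and *Nab1* (-0.63) were both lower in 4T1. *NAB2* was slightly higher in MDA-MB-231 (41.6 to 50.3 CPM, log2 fold change 0.27), which DESeq2 did not call, while *NAB1* was -0.33 and did not pass the threshold. With the replicate block, 1 of the EGR co-repressor genes was called lower in MDA-MB-231. In the ERK5 and MEF2 list, *MAPK7*, which encodes ERK5, was lower in MDA-MB-231 (-0.26), and its kinase gene *MAP2K5* was higher in both lines (0.86 and 0.25). *MEF2C* was higher in MDA-MB-231 (1.06) and *Mef2a* lower in 4T1 (-0.54). MDA-MB-231 had 1 of 5 tested genes of this list lower and 2 higher, and 4T1 had 1 of 4 lower and 1 higher. With the replicate block, 4 were higher in the human line and 2 lower in the mouse line, with total counts none was lower in MDA-MB-231, and with DESeq2 none was higher in 4T1.

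Of the other KLF genes, several were called in MDA-MB-231 in either direction and most were lower in 4T1. In MDA-MB-231, 2 of 11 tested were lower and 4 higher (median log2 fold change 0.27, with 1 lower and 2 higher in DESeq2), whereas in 4T1 6 of 8 were lower and 0 higher (median -0.46, with 1 higher under total counts). *KLF9*, known as a glucocorticoid- and thyroid-hormone-induced gene, rose in MDA-MB-231 from 2.26 to 5.85 CPM (log2 fold change 1.37) and fell from 62.7 to 25.4 CPM in 4T1 (-1.30). *KLF7* showed the same opposition (0.78 and -0.51), *KLF16* fell in both lines (-0.95 and -0.31), and *KLF17*, with 41 counts against 17, was lower in MDA-MB-231 (-1.35) and had no counts in 4T1.

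Of the MYC and MAX network, MDA-MB-231 had 2 of 11 tested genes lower and 5 higher, and 4T1 had 5 of 11 lower and 3 higher. With the replicate block, 5 genes of the network were lower in MDA-MB-231. *MXD4*, which encodes a MAX partner that represses MYC targets, rose in MDA-MB-231 from 62.7 to 164 CPM (log2 fold change 1.39) and from 19.3 to 33.3 CPM in 4T1 (0.79). *MXI1*, of the same group of repressors, rose in MDA-MB-231 (1.65) and fell in 4T1 (-0.39). *MLXIPL*, which encodes a glucose-responsive factor, was higher in MDA-MB-231 (28 counts to 114, 1.91). *Mycn* rose in 4T1 at a very low level (11 counts to 63, log2 fold change 2.39), and *MYCN* had no counts in MDA-MB-231.

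A list of 31 MYC target genes, many of them of nucleolar function, was lower almost throughout in the human line. Of the 30 tested there, 29 were lower and 0 higher, with a median log2 fold change of -0.89. *BOP1* was at 0 counts in MDA-MB-231, while *Bop1* had 8717 counts with DMSO in 4T1. Whether the human value comes from the counting or from absent expression was not tested. In 4T1, 22 of 31 were lower and 1 was higher (median -0.40, with 2 higher under the replicate block and 3 with total counts). All 22 were also lower in MDA-MB-231, but with 29 of 30 lower there this overlap was nearly fixed in advance. The polyamine synthesis gene *ODC1* fell from 290 to 108 CPM in MDA-MB-231 (log2 fold change -1.42), and *Odc1* had a log2 fold change of -1.75 in 4T1 (77433 counts to 24504). *SRM*, the spermidine synthase gene, had log2 fold changes of -1.44 and -0.39 in the human and the mouse line, and the ribosome assembly gene *NOP16* of -1.45 and -0.85. *TERT*, the telomerase gene, fell in MDA-MB-231 (-1.53) and was 0.22 in 4T1 without passing the threshold. *MYC* itself had the opposite order, with the lower log2 fold change in 4T1 (-0.89 against -0.47).

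**Figure D4:**
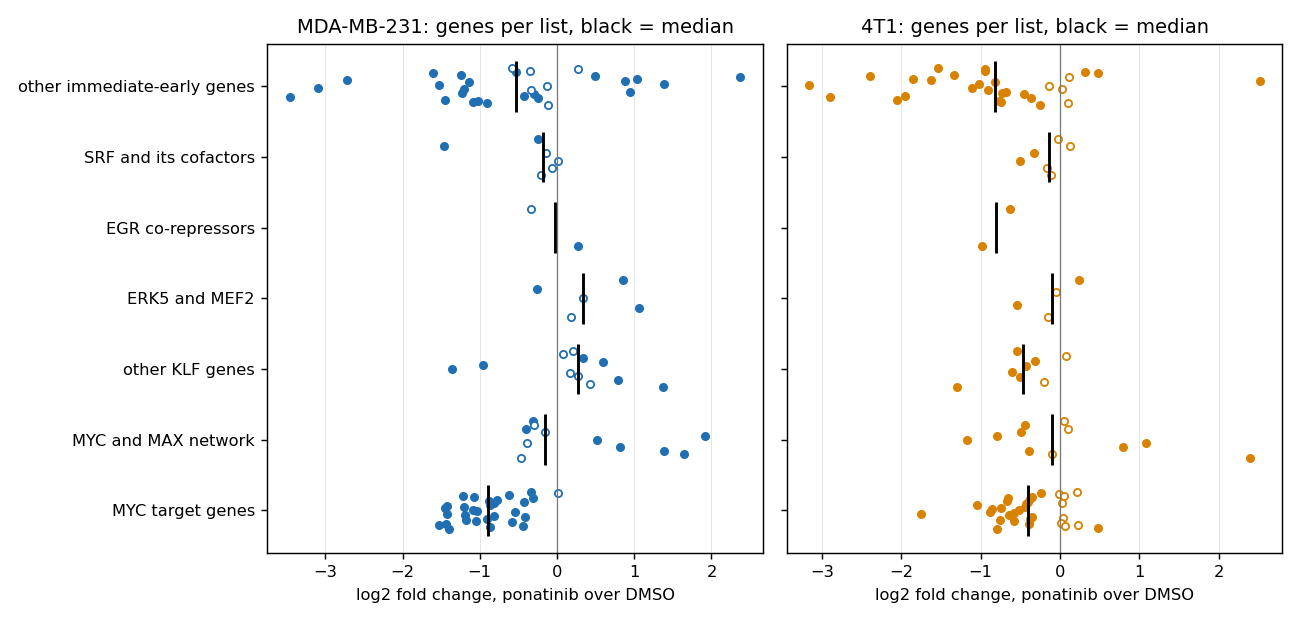
Log2 fold change, ponatinib over DMSO, of each tested gene of the 7 lists in MDA-MB-231 (blue) and 4T1 (orange); filled points passed an adjusted p-value of 0.05 and black lines mark medians. The MYC target genes have medians of -0.89 and -0.40, and the other KLF genes of 0.27 and -0.46.

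The gene whose pattern was most like each member was found by Pearson correlation of log2 CPM, centered within each line, over the 12 libraries and 12487 genes. It was *BCAR3* for *EGR1* (r = 0.995), *SLC29A1* for *IER3* (0.995), *ZBTB11* for *KLF6* (0.993), *UBE2G2* for *MYC* (0.991), *AGFG1* for *KLF10* (0.989), *FAM53C* for *KLF4* (0.983) and *ANKRD13B* for *IER2* (0.975). *KLF2* reached no more than 0.844, with *PDF*. The points share libraries and treatment, and 609 genes had r over 0.9 with *EGR1*, so these are single places in a long list.

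The members are compact genes. All 10 were shorter in genomic span and had fewer exons than the median coding gene expressed in their line, with spans of 1350 to 9286 bases and 2 to 5 exons in human against medians of 33894 bases and 9 exons. In mouse they spanned 1248 to 9257 bases with 1 to 5 exons, against medians of 26001 bases and 9 exons. The pentamer ATTTA, the core of the AU-rich elements known to shorten the life of many immediate-early transcripts, was counted on the sense strand of the 3′ untranslated regions. *IER3* had 6 copies, or 8.14 per kb, more than 98.2% of coding genes, and *Ier3* had 5 (8.16 per kb). *IER2* and *Ier2* had none, and *Myc* had 4.29 per kb. The median over the members was 1.96 per kb in human and 2.38 per kb in mouse, against 1.71 and 1.33 per kb over all expressed coding genes. Of the 10 members, 5 in human and 8 in mouse lay above the median of coding genes. Human *EGR1* had 0.82 per kb, more than only 34.2% of coding genes.

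The promoter search covered 6 of the 10 human members, with 8 starts in all (*EGR1*, *EGR2* with 3 starts, *IER2*, *KLF2*, *KLF4* and *KLF6*). A CArG box was found for 2 members, an E-box for 3, an ETS site for 1 and a MEF2 box for 1. The ETS search took the exact word CCGGAAG alone, so other ETS sequences, in *EGR1* or elsewhere, were not counted. The CArG search took exact matches alone, so CArG-like sequences with a mismatch, or farther from the start, were not counted. The cyclic AMP response core TGACG was in 4 of the 8 windows, against 21.2% of all promoters, and the GC box GGGCGG in 6, against 42.6%. The AP-1 word TGANTCA was in none of the 8 windows and in 6.57% of all promoters. Matches on either strand were counted, and 1 GC box before *EGR2* shared a base with an E-box.

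In the annotation (hg38, GENCODE v44), *EGR1* lies at chr5:138465479-138469303, *EGR2* at chr10:62811996-62819167 and *EGR3* at chr8:22687659-22693480. *IER2* lies at chr19:13150411-13154911, *IER3* at chr6:30743199-30744548, *KLF2* at chr19:16324826-16328685 and *KLF4* at chr9:107484852-107490482. *KLF6* lies at chr10:3775996-3785281, *KLF10* at chr8:102648784-102655725 and *MYC* at chr8:127735434-127742951. In mouse (GRCm39, GENCODE vM39), *Egr1* lies at chr18:34992876-34998049, *Egr2* at chr10:67371305-67378018 and *Egr3* at chr14:70314350-70320063. *Ier2* lies at chr8:85387960-85389483, *Ier3* at chr17:36132568-36133815, *Klf2* at chr8:73072726-73075502 and *Klf4* at chr4:55527139-55532528. *Klf6* lies at chr13:5911481-5920393, *Klf10* at chr15:38291703-38300959 and *Myc* at chr15:61857227-61862223. The antisense genes that overlap *IER3* and *MYC* in human, *IER3-AS1*, *HCG20* and *CASC11*, had 2, 6 and 5 counts over the 6 libraries.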

How the data were processed

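NEBNext Ultra libraries were prepared from TRIzol-isolated RNA. The authors aligned reads with HISAT2 (hg38, GRCm39) and counted reads per gene by HTSeq. Tool versions, annotation and strand setting are not given in the sources used here. The deposited values are unnormalized gene counts, and the labels gave each sample's group. Identifiers were matched to GENCODE v44 (81.9%, 99.3% of counts) and vM39 (91.1%, 99.8% of counts).

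Each line was tested with edgeR 4.0.16 in R 4.3.3 (filterByExpr, TMM, quasi-likelihood test, Benjamini-Hochberg). The difference between the lines was the interaction term over genes with the same symbol. The standard error was the coefficient over the square root of F. Low counts limit precision. Alternatives were DESeq2 1.42.0, its size factors, total counts, no filter, a minimum of 10 counts per library, a replicate block, and leaving out each library. Same-numbered ponatinib and DMSO libraries deviated together (correlations of 0.345, 0.111 and 0.133 for MDA-MB-231 and of 0.213, 0.119 and 0.115 for 4T1). A pairing by number rests on these values alone, and those of differently numbered libraries are not given here. The study states no pairing, so the main fits used no block and the block was an alternative. The member calls that the block changed are given with the results.

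Named genes were all members, up to 4 called genes of each list with the largest fold changes, and 1 most similar gene per member. Lists were written from general knowledge. Members and lists were chosen with earlier results of these data known. Promoter sequences came from RefSeq (GRCh38.p14), held for 6 of the 10 human members. The steps were tested on simulated data. For 1 marker gene, results are not reported here.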

Additional observations from a re-analysis of the deposited data

Results flagged for a closer look

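The response to ponatinib of 3 members differed between the lines by the interaction test, with the lower log2 fold change in 4T1. They are 3 of the 8 members tested in both lines, beside 41.9% of all 12488 genes tested, so the count says nothing particular about the members. The libraries of both lines were scaled together for this test, so a difference need not equal that between the values of the separate fits. The difference, 4T1 minus MDA-MB-231, was -0.75 for *KLF4*, with -0.48 in 4T1 and 0.20 in MDA-MB-231. For *KLF6* it was -0.53, with -1.04 in 4T1 and -0.59 in MDA-MB-231. For *MYC* it was -0.49, with -0.89 in 4T1 and -0.47 in MDA-MB-231. All 3 were also past the threshold in the 18 alternatives run for each, with adjusted p-values up to 0.00231, 0.0198 and 0.0171 in these fits across all genes (edgeR and DESeq2). Line and species cannot be told apart.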

How the results depend on the processing

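Over 26 member values and 360 alternatives, 328 kept direction and side of the threshold, 0 lost the threshold, 28 gained it and 4 changed sign. All 4 sign changes were *Klf2* in 4T1, where leaving out 1 library gave -0.0986 to 0.180. The number of members whose response differed between the lines, 3, became 5 with DESeq2, its size factors, total counts, no filter, a minimum of 10 counts per library or the replicate block, and ran from 3 to 5 over the left-out libraries. Total counts raised the median over all tested genes to 0.11 (MDA-MB-231) and 0.12 (4T1). They gave 1 lower gene in each line and 1 higher in 4T1 for SRF and its cofactors, 0 lower for ERK5 and MEF2 in MDA-MB-231, 1 higher other KLF gene and 3 higher MYC target genes in 4T1. With the replicate block, 1 EGR co-repressor was lower, 4 ERK5 and MEF2 genes were higher and 5 genes of the MYC and MAX network were lower for MDA-MB-231, and 2 ERK5 and MEF2 genes were lower and 2 MYC target genes higher in 4T1. DESeq2 gave 0 higher EGR co-repressors, 1 lower and 2 higher other KLF genes in MDA-MB-231, and 0 higher ERK5 and MEF2 genes in 4T1. The cause of these shifts was not tested. Beyond the changes in *KLF2*, *KLF4*, *EGR1* and *IER2* given with their results, the block changed no other member's call. *Egr3*, *Klf2* and the human *EGR2* and *EGR3* are limited by depth.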
